A study of Mus musculus with 10 samples.

Results

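The 8 genes described here belong to the Hippo pathway and its output in mouse pancreas: Yap1 and Wwtr1 (which encodes TAZ), the coactivators; Tead1, their DNA-binding partner; Ajuba, an adaptor; and Ankrd1, Amotl2, Lats2 and Axl, known targets. They were taken by symbol from a raw count table of 24421 genes, and all 8 were present and tested. The set was chosen by pathway knowledge together with the measured fold changes of these same libraries, in which Ankrd1 had the smallest p of all tested genes when Het was compared with WT. The levels and fold changes of the 8 genes are therefore a description, without a test of their own.

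In the Hippo pathway, the kinases encoded by Stk3 and Stk4 activate the kinases encoded by Lats1 and Lats2, which phosphorylate YAP and TAZ and keep them out of the nucleus. Unphosphorylated YAP and TAZ enter the nucleus, bind TEAD proteins and raise the transcription of targets such as Ankrd1, Ccn1 and Ccn2. In the pancreas, YAP and TAZ are known from ducts, stellate cells and acinar cells that change toward a duct-like state, and mature acinar cells hold little of either.

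Gene counts came from 10 female mice, each 12 weeks old and giving 1 library from a piece of its pancreas tail. By their labels, all of them carried Ptf1aCreER, a Cre recombinase driven by the acinar gene Ptf1a and switched on by tamoxifen, and the nuclear reporter nTnG. The groups differed in floxed alleles of Insr, the insulin receptor gene, namely 0 in Insr WT (w/w, 3 libraries), 1 in Insr Het (w/f, 3 libraries) and 2 in Insr KO (f/f, 4 libraries). WT refers to Insr alone, and 1 more allele shared by all groups is left unnamed. Each library is named by its group and mouse number. The driver acts in acinar cells, whereas a tissue piece also holds ducts, stroma, islets and immune cells, and gene counts do not show whether a floxed exon was removed.

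Gene counts ranged from 11718559 to 19024351 per library. Acinar marker genes were present in every library, and 6 digestive enzyme genes (Cpa1, Cela1, Ctrb1, Pnlip, Prss2 and Cel) took 31.1% to 43.1% of the gene counts in 9 libraries and 9.13% in WT-2404, which stands apart. Levels are counts-per-million values (CPM) on library sizes scaled by TMM, a method that adjusts for libraries dominated by a few abundant genes. Its factor was 3.54 in WT-2404 and 0.596 to 1.56 in the others. Where leaving out WT-2404 moved a value by much, the value without it is given beside it.

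Ankrd1 encodes an ankyrin repeat protein of the nucleus and of muscle sarcomeres, and its transcript is one of the most widely used readouts of YAP and TAZ. It was the least abundant of the 8 genes and differed most between the groups. WT-2404 held 2.39 CPM of it, WT-1860 held 2.46 and WT-2067 held 1.96. In the Het libraries it was 0.263 CPM in Het-2066, 0.280 in Het-1770 and 0.368 in Het-2042. In the KO libraries it was 0.371 CPM in KO-2079, 0.395 in KO-2070, 0.692 in KO-2124 and 0.404 in KO-2126. All 3 WT libraries lay above all 7 libraries with a floxed allele. On this TMM scale, WT-2404 lay between the other 2 WT libraries.

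The Ankrd1 values rest on few reads, with 143, 45 and 32 counts in WT-2404, WT-1860 and WT-2067, 3, 3 and 6 in the Het libraries, and 3 to 15 in the KO libraries. Exact Poisson 95% intervals, which cover counting error only, reached at most 1.16 CPM (1.155, KO-2070) in the libraries with a floxed allele. In WT they went down to 1.34 CPM (WT-2067). These intervals take the TMM-scaled library sizes as exact, so they hold on that scale only. The set was chosen with the Ankrd1 difference known, so the gap between the intervals is no test of it. The WT mean was 2.27 ± 0.271 CPM (SD, n = 3), the Het mean 0.304 ± 0.0566 CPM (SD, n = 3) and the KO mean 0.466 ± 0.151 CPM (SD, n = 4). The fitted log2 fold change of Ankrd1 was -2.86 (SE 0.49) in Het against WT, a level 7.25-fold lower, and -2.23 (SE 0.42) in KO against WT, 4.68-fold lower. In KO against Het it was 0.63 (SE 0.51). Without WT-2404 the values against WT were -2.79 and -2.18. In a piece of bulk tissue, fewer cells with a transcript and less transcript per cell cannot be told apart.

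**Figure D1:**
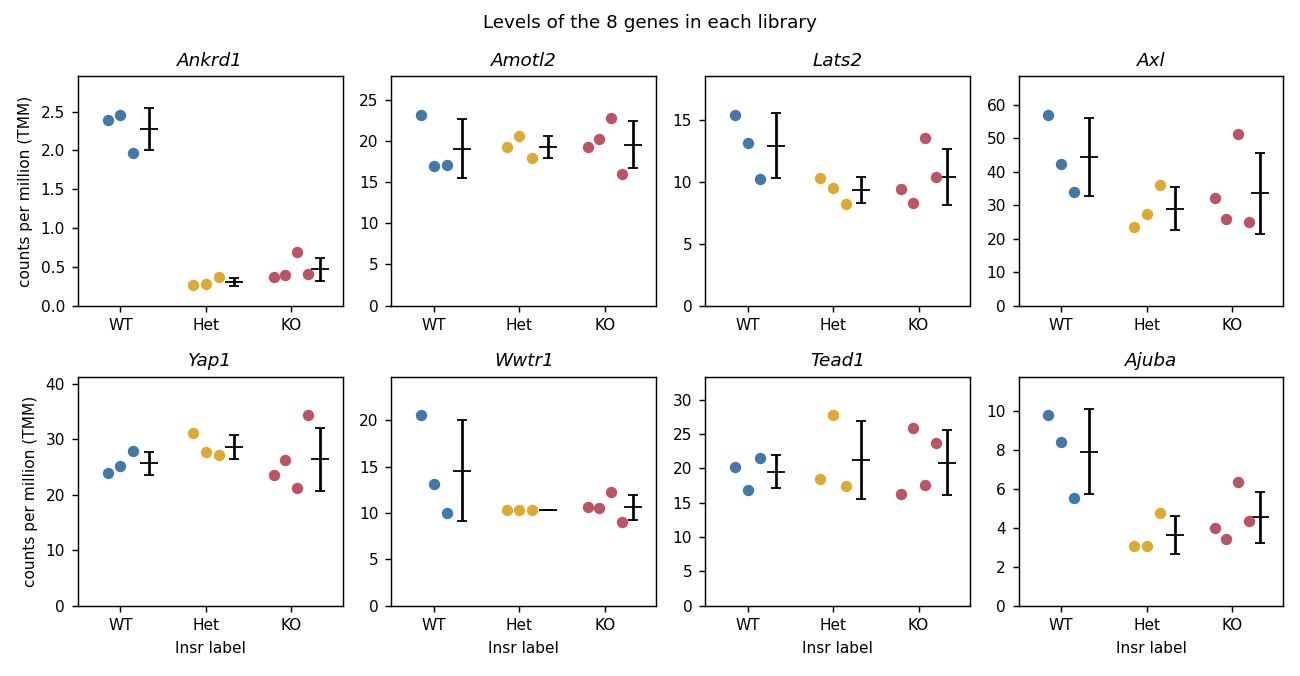
Level of each of the 8 genes (vertical axes, TMM-scaled CPM, each from 0) in the WT, Het and KO libraries; each point is 1 mouse, and the black mark with bars is the mean with its SD. The 3 WT points of Ankrd1 lie between 1.96 and 2.46 CPM, above all 7 others at 0.263 to 0.692, while the groups overlap for Yap1, Tead1, Amotl2, Wwtr1, Lats2 and Axl.

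Amotl2 and Lats2 are targets that also act back on the pathway, since angiomotin-like proteins hold YAP in the cytoplasm and the LATS kinases phosphorylate it. Amotl2 was at 23.2, 17.0 and 17.1 CPM in WT-2404, WT-1860 and WT-2067, at 17.9 to 20.6 CPM in Het and at 16.0 to 22.8 CPM in KO. The groups of Amotl2 overlapped fully, with log2 fold changes of 0.01 (SE 0.19) in Het against WT and 0.04 (SE 0.18) in KO against WT. Lats2 was at 15.4, 13.1 and 10.2 CPM in the WT libraries in the same order. It was at 10.3, 9.51 and 8.17 CPM in Het-2066, Het-1770 and Het-2042, and at 9.40, 8.30, 13.6 and 10.4 CPM in KO-2079, KO-2070, KO-2124 and KO-2126. For Lats2 the lowest WT library fell inside the range of both other groups. Its log2 fold change was -0.48 (SE 0.23) in Het against WT and -0.31 (SE 0.21) in KO against WT, and without WT-2404 it was -0.32 and -0.15.

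Axl encodes a receptor tyrosine kinase that binds GAS6, found on macrophages, stromal cells and many epithelial tumours. Its level was 57.1, 42.3 and 34.1 CPM in WT-2404, WT-1860 and WT-2067. In the Het libraries Axl was at 23.5, 27.4 and 36.0 CPM (Het-2066, Het-1770, Het-2042), and in the KO libraries at 32.2, 26.0, 51.2 and 25.0 CPM (KO-2079, KO-2070, KO-2124, KO-2126). KO-2124 was thus the second highest of the 10 libraries and overlapped the WT range. The log2 fold change of Axl was -0.62 (SE 0.30) in Het against WT and -0.40 (SE 0.28) in KO against WT, and without WT-2404 these values were -0.38 and -0.17.

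The coactivators did not share 1 pattern. Yap1 was at 23.9 to 27.9 CPM in WT, 27.1 to 31.1 in Het and 21.2 to 34.4 in KO libraries. Its groups overlapped, and its log2 fold change was 0.16 (SE 0.20) in Het against WT and 0.04 (SE 0.19) in KO against WT. Wwtr1 was at 20.6, 13.2 and 9.99 CPM in WT-2404, WT-1860 and WT-2067, against 10.3 to 10.4 CPM (10.31 to 10.35) in all 3 Het libraries and 9.00 to 12.3 CPM in the KO libraries. The Wwtr1 difference therefore sat largely in WT-2404. Its log2 fold change was -0.51 (SE 0.25) in Het against WT and -0.46 (SE 0.23) in KO against WT, and -0.15 and -0.12 without that library.

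Tead1, which encodes a TEAD factor through which YAP and TAZ reach DNA, was at 16.9 to 21.6 CPM in WT, 17.5 to 27.8 in Het and 16.2 to 25.8 in KO libraries. Its groups overlapped, and its log2 fold change was 0.12 (SE 0.24) in Het against WT and 0.09 (SE 0.22) in KO against WT. Library size alone, without TMM, placed all 8 genes lower in Het and KO than in WT, Yap1, Tead1 and Amotl2 included, beside a shift of all tested genes to a median of -1.36 in Het against WT and -1.17 in KO against WT.

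Ajuba encodes a LIM domain adaptor of cell junctions that binds and inhibits the LATS kinases. Its level was 9.78, 8.37 and 5.52 CPM in WT-2404, WT-1860 and WT-2067. In Het-2066, Het-1770 and Het-2042 it was 3.07, 3.08 and 4.73 CPM, and in KO-2079, KO-2070, KO-2124 and KO-2126 it was 3.96, 3.43, 6.36 and 4.35 CPM. All Het libraries lay below all WT libraries, while KO-2124 lay above WT-2067. The Ajuba log2 fold change was -1.12 (SE 0.31) in Het against WT, 2.17-fold lower, and -0.79 (SE 0.28) in KO against WT. Without WT-2404 these were -0.91 and -0.59.

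**Figure D2:**
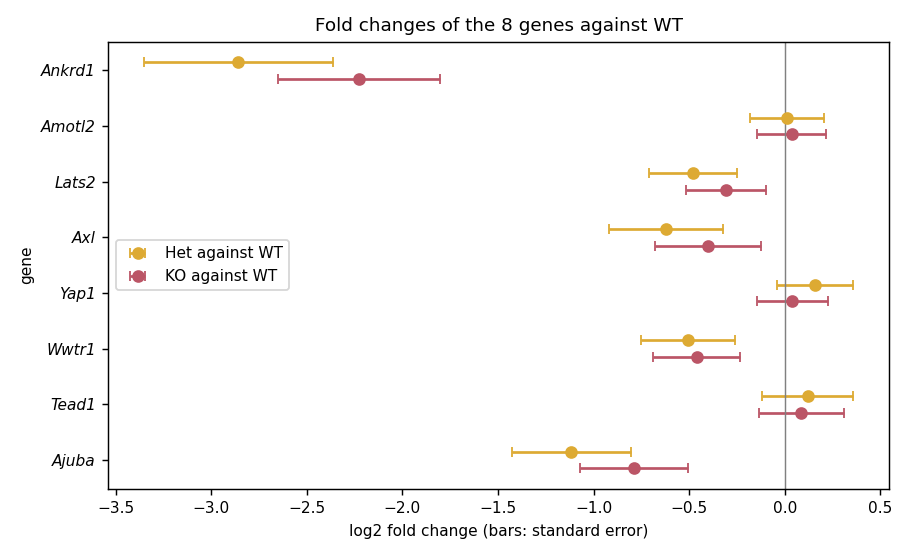
log2 fold change (horizontal axis) of each of the 8 genes from the fit over all genes, in Het against WT and KO against WT, with standard errors as bars. Ankrd1 lies farthest from 0, at -2.86 and -2.23, Ajuba is next at -1.12 and -0.79, and Yap1, Tead1 and Amotl2 lie within 1 standard error of 0.

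Counts over the 8 genes read as follows beside those over all 13688 tested genes. In Het against WT, 5 of the 8 had a fold change below 0 (49.7% of all tested genes), 2 lay wholly below the WT range (Ankrd1 and Ajuba, 13.5% of all), and the same 2 had an unadjusted p under 0.05 (11.6% of all, lower). In KO against WT, 5 of 8 were below 0 (48.1%), 1 lay wholly below the WT range (Ankrd1, 9.15%), and Ankrd1 and Ajuba had an unadjusted p under 0.05 (13.9%, lower). No member passed an adjusted p of 0.05 in edgeR, nor did any gene of the table, in Het against WT, KO against WT or KO against Het (0 genes, 0%), with 2715, 3222 and 103 genes at an unadjusted p under 0.05. DESeq2 called Ankrd1 and Ajuba in Het against WT, where it called 1.93% of genes as lower, and Ankrd1 in KO against WT, where it called 5.27% as lower; it called 0 genes in KO against Het. Without WT-2067, edgeR called Ankrd1 and Ajuba in both comparisons with WT, among 1160 and 1932 genes. Since these contrasts were known when the set was chosen, the counts are no support for it. Both comparisons also share the WT libraries.

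The median log2 fold change of the 8 genes was -0.49 in Het against WT and -0.36 in KO against WT (-0.355), beside 0.0046 and 0.03 (0.0254) over all genes tested. The medians of the 8 genes without WT-2404 were -0.23 and -0.13, beside 0.02 (0.0178) and 0.03 (0.0308) over all genes tested. In KO against Het the median was 0.11, with 6 of 8 genes above 0 (51.5% of all tested genes). There Ankrd1 was the only member whose groups did not overlap (1.3% of all tested genes, higher), by a narrow gap between 0.368 CPM in Het-2042 and 0.371 in KO-2079. Without KO-2124 the Ankrd1 value in KO against Het was 0.31.

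Per kilobase of exon, in the union of GENCODE M21 exons, the WT levels ran from Axl at 8.84 ± 2.32 CPM per kb (SD, n = 3) to Ankrd1 at 0.787 ± 0.0937 CPM per kb. Between them came Wwtr1 (3.05), Amotl2 (3.04, from 3.035), Yap1 (2.77), Ajuba (2.16), Lats2 (1.85) and Tead1 (1.44 CPM per kb). Axl stood above Wwtr1 and Ankrd1 below Tead1 with no overlap of the WT libraries, and each other neighbouring pair overlapped. In the Het libraries Yap1 (3.09) and Amotl2 (3.07) stood above Wwtr1 (2.16 CPM per kb), and Ankrd1 was at 0.105 ± 0.0196 CPM per kb (SD, n = 3). Lats2 shares exon sequence with Gm49361 on its own strand and Yap1 with Gm20416 on the opposite strand, so reads of Lats2 and Yap1 may be shared with them. The sources used here do not give the strand setting of the counting.

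TEAD factors are known to bind the motif GGAATG, or CATTCC on the other strand. The given promoter windows (RefSeq, GRCm38.p6, 250 bases before and 50 after a start site) matched 7 of the 8 genes, all but Tead1, and each of the 7 held the motif in at least 1 window, in 8 of 9 windows. Of all 32851 windows 14.7% held it, and of all 27025 genes with a window 16.6%. Among the other YAP and TAZ targets listed below, 3 of 11 genes with a window held it (27.3%). Among the other Hippo pathway genes listed below, 7 of 21 did (33.3%). The longer form, GGAATGT or ACATTCC, which contains the shorter one, was in windows of 4 of the 7 genes and of 4.47% of all genes with a window. These genes are known YAP and TEAD genes, so the share is not independent of how they were chosen. The matches are shown with the motif in capitals and 10 bases on each side, on the strand of the gene.
Ankrd1, chr19:36120039-36120064: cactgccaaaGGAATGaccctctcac
Ankrd1, chr19:36119952-36119977: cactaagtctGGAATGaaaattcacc
Ajuba, chr14:54577810-54577857: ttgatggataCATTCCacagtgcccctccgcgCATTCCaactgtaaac
Axl, chr7:25788951-25788976: aaattctacaGGAATGtttaccagac
Amotl2, chr9:102717729-102717754: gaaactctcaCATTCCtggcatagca
Lats2, chr14:57746104-57746129: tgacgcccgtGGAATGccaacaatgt
Wwtr1, chr3:57576031-57576056: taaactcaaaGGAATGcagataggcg
Yap1, chr9:8004722-8004747: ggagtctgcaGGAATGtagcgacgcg

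Ankrd1 and Ajuba each had a pair of matches in a window. These started 210 and 123 bases before the RefSeq start site in Ankrd1 and 186 and 164 bases before it in Ajuba. The whole Ajuba window lies upstream of the GENCODE M21 gene, so its distances hold for the RefSeq start site alone. Whether the number of matches bears on the differences between groups was not tested. The other members had 1 match per window that held any. In GENCODE M21 the matches of Ajuba, Axl, Wwtr1 and Yap1 lie upstream of the gene, and those of Ankrd1, Amotl2 and Lats2 in the 5' UTR of an annotated transcript. A match of letters is a description and does not show binding. Amotl2 and Yap1 had a match and overlapping groups.

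Ankrd1 was next read beside the makeup of the tissue pieces. Axl, Wwtr1, Ajuba, Lats2 and Amotl2 were highest in WT-2404, the library with the lowest enzyme share, and Ankrd1 was highest in WT-1860. WT-1860 and KO-2124 had close enzyme shares of 31.1% and 32.4%, a pair picked after the values were seen. Between them Ankrd1 was at 2.46 and 0.692 CPM, Ajuba at 8.37 and 6.36, Axl at 42.3 and 51.2, Lats2 at 13.1 and 13.6, and Wwtr1 at 13.2 and 12.3 CPM. Yap1 was at 25.1 and 21.2 CPM in this pair, Tead1 at 16.9 and 17.6, and Amotl2 at 17.0 and 22.8. WT-1860 held the highest TMM-scaled Ankrd1 level of all libraries, and the set was chosen with the Ankrd1 difference known. The pair therefore cannot show whether that difference holds at equal enzyme shares.

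**Figure D3:**
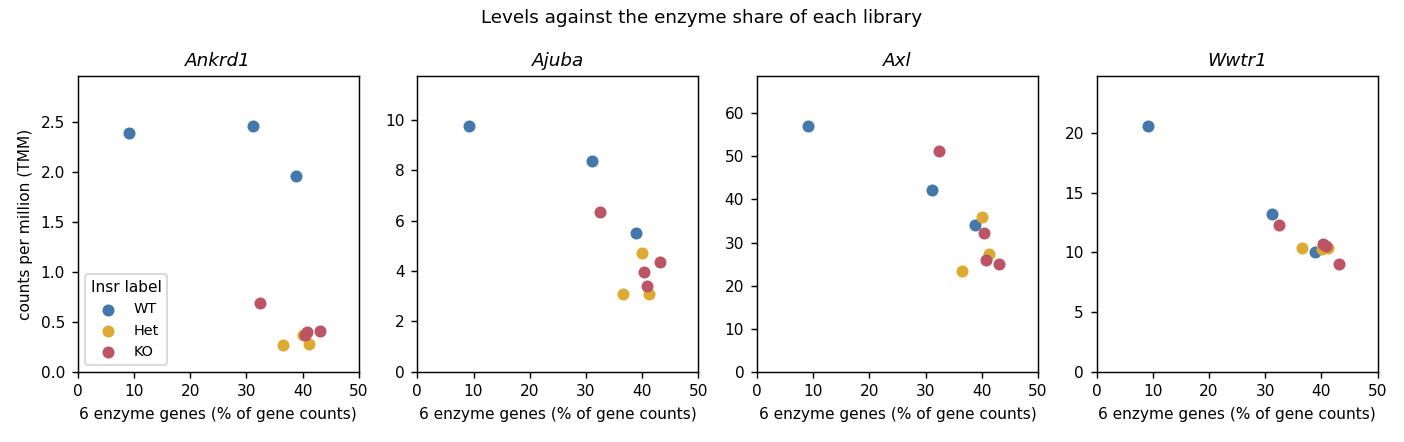
Levels of Ankrd1, Ajuba, Axl and Wwtr1 (vertical axes, TMM-scaled CPM) against the share of gene counts taken by 6 digestive enzyme genes (horizontal axes, percent), 1 point per library. On the TMM scale, the WT points of Ankrd1 stay at 1.96 to 2.46 CPM from 9.13% to 38.9% enzyme share. Wwtr1 runs from 20.6 CPM in WT-2404 to 9.00 in KO-2126.

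With the enzyme share as a covariate, the log2 fold change of Ankrd1 was -2.68 in Het against WT and -2.06 in KO against WT, that of Ajuba -0.72 and -0.42, that of Axl -0.17 and 0.0009, that of Lats2 -0.18 and -0.01 (-0.0133), and that of Wwtr1 -0.003 and 0.03 (0.0272). Among these genes, the values of Axl, Lats2 and Wwtr1 shrank most in proportion, those of Ajuba less and those of Ankrd1 least. The members near 0 in the reported fit were at 0.02 and -0.11 (Yap1), 0.03 and -0.002 (Tead1) and 0.26 and 0.28 (Amotl2). The term is partly confounded with genotype, since the low share of 9.13% is that of a WT library and the others were at 31.1% to 43.1%. The fit therefore cannot separate tissue makeup from genotype.

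Marker sums of several other cell types also differed between the groups, although edgeR called no marker at an adjusted p of 0.05 (0 genes), and 49.7% and 48.1% of all tested genes were lower in Het and in KO than in WT. All 8 fibroblast markers were lower in Het and 7 of 8 in KO than in WT, and their summed level was 1265 to 4398 CPM in WT, 546 to 995 in Het and 487 to 1141 in KO, with none at 0. All 6 macrophage markers were lower in Het and in KO, with sums of 352 to 1396, 187 to 288 and 111 to 403 CPM. Of the 8 duct markers 6 were lower in each, with sums of 771 to 1254, 367 to 637 and 376 to 627 CPM, and 6 of 7 smooth muscle markers were lower in each, with sums of 61.2 to 98.1, 49.6 to 61.0 and 24.6 to 67.4 CPM, Cnn1 being at 0 in some libraries. All 7 lymphoid markers were lower in each (12.0 to 29.5, 5.88 to 6.25 and 2.12 to 17.0 CPM), with Cd3d, Cd8a and Ms4a1 at 0 in some. DESeq2 called as lower 3 and 4 of the 8 fibroblast markers in Het and KO, 1 and 6 of the 6 macrophage markers and 1 and 5 of the 8 duct markers. It called 0 and 1 of the 7 smooth muscle markers and 0 of the 7 lymphoid markers in each, beside 1.93% and 5.27% of all genes. The part of these cells in the differences of the 8 genes was not tested.

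Set against the summed fibroblast markers, Ankrd1 was at 0.543, 1.33 and 1.55 CPM per 1000 fibroblast CPM in WT-2404, WT-1860 and WT-2067, at 0.307 to 0.482 in Het and at 0.325 to 0.863 in KO. On this scale Het remained below WT, while 3 of the 4 KO libraries exceeded WT-2404. Ajuba on the same scale was at 2.22 to 4.51 in WT, 3.38 to 5.62 in Het and 3.47 to 8.43 in KO, so its groups overlapped. Col1a1, Col1a2 and Col3a1 made up most of the fibroblast sum in WT-2404, at 1093, 950 and 1923 of 4398 CPM. In Het against WT their log2 fold changes were -2.17, -1.87 and -1.95. Those of the other fibroblast markers ran from -1.50 (Lum) to -0.04 (Dcn). The scale therefore follows collagen transcripts in large part and is no measure of fibroblast content.

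Ankrd1 is best known from heart and skeletal muscle. The 6 striated muscle markers (Acta1, Actc1, Ckm, Myh1, Tnnt3 and Myl1) summed to 0.184 to 1.15 CPM in WT, 0.702 to 2.14 in Het and 0.495 to 1.58 in KO, and only Ckm had a count in every library. These sums rest on at most 16 counts per gene and library, and the genes did not share 1 pattern: Acta1 had 6, 4 and 5 counts in WT-2404, WT-1860 and WT-2067, 2 to 16 in the Het libraries and 0, 0, 2 and 0 in the KO libraries, while Ckm had 1, 10 and 8 counts in WT, 3 to 15 in Het and 2 to 11 in KO. The 5 mesothelial markers counted (Msln, Upk3b, Wt1, Lrrn4 and Upk1b) summed to 21.9 to 38.9 CPM in WT, 20.9 to 51.6 in Het and 25.1 to 55.2 in KO, and 3 of 5 were higher in Het and 4 of 5 in KO. Endothelial markers summed to 85.7 to 138 CPM in WT, 117 to 134 in Het and 85.8 to 169 in KO, with 5 of 6 higher in each. The part of these 3 cell types in the Ankrd1 difference was not tested.

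The other genes of the pathway came from fixed lists. Of 18 further YAP and TAZ targets from a widely used signature, 17 were tested, and 15 had a log2 fold change below 0 in Het against WT and 16 in KO against WT, with medians of -0.72 and -0.75, where 49.7% and 48.1% of all tested genes were below 0. None passed an adjusted p of 0.05 in edgeR (0 of 17). At an unadjusted p under 0.05, 8 and 10 of the 17 were lower (11.6% and 13.9% of all tested genes), DESeq2 called 1 and 5 as lower (1.93% and 5.27%), and 6 and 4 lay wholly below the WT range (13.5% and 9.15%). Without WT-2404 the medians were -0.40 and -0.49, 15 of 17 were below 0 in each comparison, and 3 and 4 were lower at an unadjusted p under 0.05 (3.61% and 5.29% of all tested genes). With the enzyme share as a covariate the medians were -0.24 and -0.32, and 15 and 13 of the 17 were below 0. In that fit 1 and 3 were lower at an unadjusted p under 0.05 (1.69% and 3.29% of all tested genes). In KO against Het, 10 of the 17 were higher and the median was 0.0086.

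Ccn1 and Ccn2, listed in the table under their older symbols Cyr61 and Ctgf, encode secreted matricellular proteins and are, with Ankrd1, the standard YAP readouts. Cyr61 was at 10.4, 11.0 and 7.42 CPM in WT-2404, WT-1860 and WT-2067, at 4.20 to 4.97 CPM in Het and at 3.29 to 9.96 in KO. Its Het libraries lay below all WT libraries, and KO-2079 reached into the WT range. Cyr61 had a fold change of -1.05 on the log2 scale (SE 0.36; edgeR adjusted p = 0.184) in Het against WT and -0.75 in KO against WT (edgeR adjusted p = 0.196). Ctgf was at 39.2, 38.9 and 24.8 CPM in the WT libraries, at 11.9 to 27.8 in Het and at 5.01 to 27.8 in KO, and its log2 fold change was -0.90 and -1.11 (edgeR adjusted p = 0.319 and 0.184). For Ctgf, Het-2042 and KO-2124 lay above WT-2067. The promoter window of Ccn1 held the motif as well, at chr3:145650073-145650098. Ccn1 was 1 of 3 genes with the motif among the 11 further targets with a window, and Ccn2 had no window.
Ccn1, chr3:145650073-145650098: cgccaaccaaCATTCCtgagatgttt

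The targets with the smallest p in Het against WT were Gadd45a, a stress-induced growth arrest gene, Myof, a membrane repair protein, and F3, the tissue factor that starts coagulation. Gadd45a had a WT mean of 5.99 ± 1.71 CPM (SD, n = 3), a Het mean of 2.02 ± 0.580 (SD, n = 3) and a KO mean of 2.01 ± 0.934 (SD, n = 4), with log2 fold changes of -1.56 and -1.55. Myof had log2 fold changes of -1.25 and -1.39, which were -0.78 and -0.93 without WT-2404, and F3 of -1.15 and -1.36. All 3 lay wholly below WT in both groups, as did 6 and 4 of the 17 targets and 13.5% and 9.15% of all tested genes. They were picked by their p in these libraries, so this separation is no support. None of the 3 passed in edgeR, with an adjusted p of 0.184 in Het against WT and 0.116 in KO against WT for each. Those above 0 in Het against WT were Dock5 at 0.23 and Tgfb2 at 0.17 (edgeR adjusted p = 0.479 and 0.771). In KO against WT, Dock5 was at 0.42 and Tgfb2 at -0.10 (0.06 without WT-2404).

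**Figure D4:**
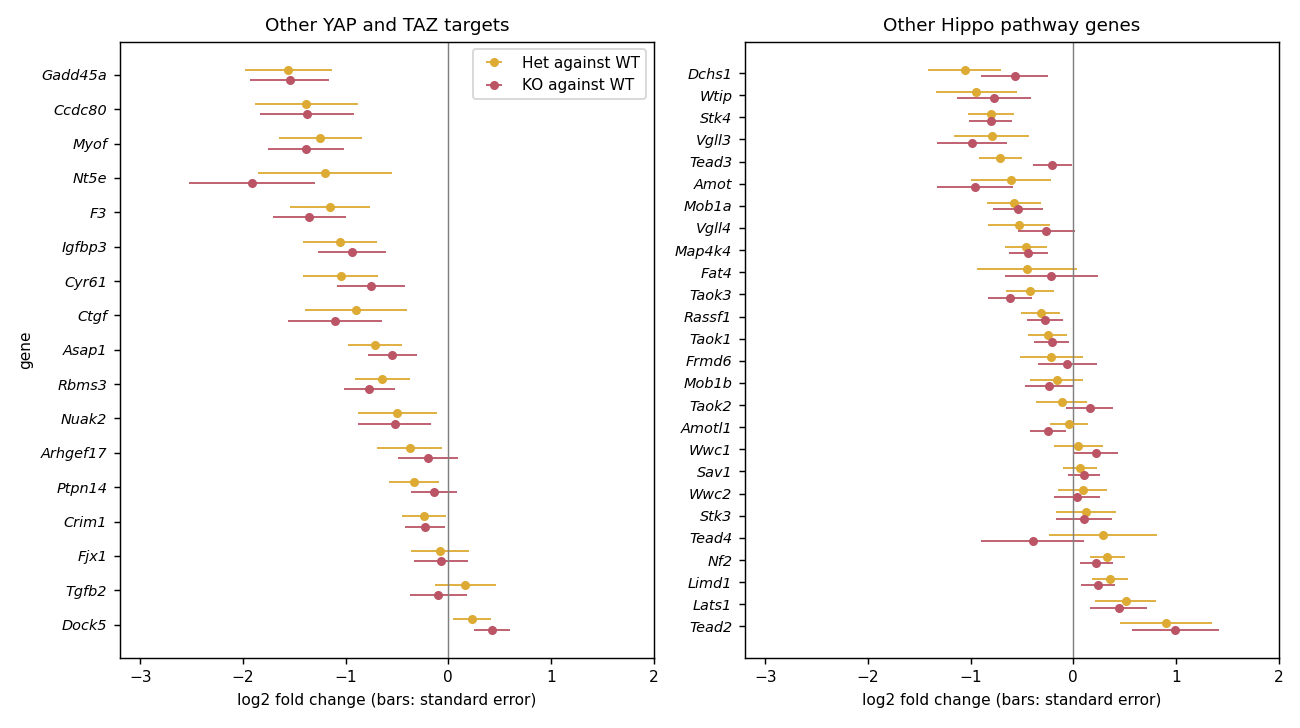
log2 fold change (horizontal axes) with its standard error for the 17 tested further YAP and TAZ targets (left) and 26 further Hippo pathway genes (right), in Het against WT and KO against WT, ordered by the Het value. The targets lie mostly below 0 (15 of 17 in Het), and the pathway genes spread on both sides (17 of 26 below 0), with Tead2 farthest above 0 at 0.90 and 0.99. Of all tested genes, 49.7% were below 0 in Het against WT.

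Of 26 further kinases, adaptors and transcription partners of the pathway, all tested, 17 had a fold change below 0 in each comparison with WT. Of all tested genes, 49.7% and 48.1% were below 0. The medians of the 26 were -0.23 and -0.22, beside 0.0046 and 0.0254 over all genes tested. They were -0.19 and -0.16 without WT-2404, and -0.15 and -0.12 with the enzyme share as a covariate. None passed an adjusted p of 0.05 in edgeR (0 of 26). At an unadjusted p under 0.05, 7 and 6 of the 26 were lower (11.6% and 13.9% of all tested genes), and 3 and 1 without WT-2404 (3.61% and 5.29%). DESeq2 called 0 and 1 of the 26 as lower, beside 1.93% and 5.27% of all genes it tested. Stk4, an upstream kinase, was at -0.80 and -0.81 on the log2 scale, or -0.53 and -0.55 without WT-2404, and Dchs1, a protocadherin that signals to the pathway, at -1.06 and -0.57. Tead3 had a WT mean of 7.05 ± 0.587 CPM (SD, n = 3), a Het mean of 4.31 ± 0.298 (SD, n = 3) and a KO mean of 6.12 ± 0.650 (SD, n = 4), so its Het libraries lay below WT while its KO libraries overlapped WT. Above 0 in Het against WT were Tead2 at 0.90, Limd1, which encodes a relative of AJUBA, at 0.36, and Nf2, which encodes the upstream activator merlin, at 0.33.

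Tead2 differed in the other direction from Ankrd1 and was lowest in WT-2404, the library with the lowest enzyme share. It was at 25.7, 80.1 and 122 CPM in WT-2404, WT-1860 and WT-2067, at 126 to 157 CPM in Het and at 106 to 187 in KO libraries. Tead2 differed by 0.90 on the log2 scale (SE 0.44; edgeR adjusted p = 0.273) in Het against WT and 0.99 in KO against WT (edgeR adjusted p = 0.187), and by 0.50 and 0.57 without WT-2404.

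Across the 10 libraries, the genes outside the set whose log2 CPM was most like that of Ankrd1 were Rgs18, a regulator of G protein signalling, at a Pearson r of 0.939 (Spearman rho 0.915), Rbfox2, a splicing factor, at 0.932 (rho 0.903), Tgif1, a homeobox repressor, at 0.930 (rho 0.733), Chd3, a chromatin remodeller, at 0.927 (rho 0.709), and Cblb, a ubiquitin ligase, at 0.922 (rho 0.952). These are ranks among 13687 genes over 10 points that share the group difference and the scaling, so they are descriptions, and 19 genes reached an r of 0.9. Leaving out single libraries kept 1 to 3 of the 5 among the closest 5. Of the members, Ajuba was most like Ankrd1, at 0.893 and rank 33, followed by Axl at 0.712 (rank 1373), Lats2 at 0.707 and Wwtr1 at 0.656. Yap1, Tead1 and Amotl2 were at -0.353, -0.231 and -0.004. Without WT-1860 and WT-2404, the libraries farthest from the median of Ankrd1, r was 0.724 for Ajuba, 0.471 for Axl, 0.338 for Lats2 and 0.057 for Wwtr1. Over all 28 pairs of members r ran from -0.769 to 0.898, so not all members varied in the same direction.

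**Figure D5:**
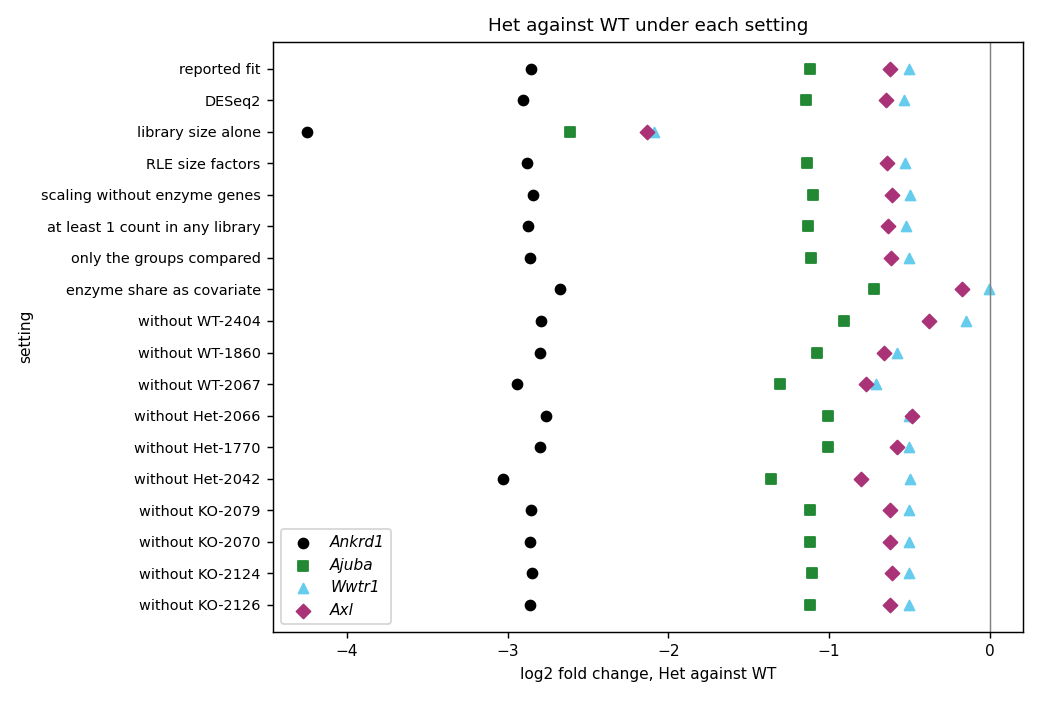
log2 fold change in Het against WT (horizontal axis) of Ankrd1, Ajuba, Wwtr1 and Axl under the reported fit and each alternative setting (rows). Ankrd1 lies between -3.03 and -2.68 in all but library size alone (-4.25), and Wwtr1 moves to -0.003 with the enzyme share as a covariate and to -0.15 without WT-2404.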

How the data were processed

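Total RNA was made into libraries with a stranded mRNA kit, per the labels' protocols. The authors deposited unnormalized whole-number counts by gene symbol in 10 columns, each matched by its name to 1 mouse (0 columns left over). The submitters' processing notes name DRAGEN, STAR, Cufflinks and mm10, with no roles; the counting tool and annotation are not given in the sources used here. Rows for reads outside genes (2.60% to 8.71% of all counts, 2.595% at the lowest) and ambiguous reads (0.101% to 0.584%) stayed out. The labels count 1 more WT mouse, not analysed here. An allele common to all groups is not reported here.

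Of 24421 genes, 13688 passed edgeR's filterByExpr (minimum count 10). They were fitted in 1 model over all 10 libraries (edgeR 4.0.16, TMM, quasi-likelihood, robust, two-sided, R 4.3.3), without covariates, with p-values adjusted by Benjamini and Hochberg over all tested genes at a threshold of 0.05. Standard errors come from the quasi-F statistic. The procedure was tested on simulated counts with the same spread for every gene and no library of differing makeup, a simpler case than these libraries. Library pairs within groups differed beyond sampling noise (chi-square per degree of freedom 26.5 to 988). The labels do not say whether mice shared a litter or batch. Log2 CPM used a prior count of 2; a library with 0 counts of a gene allows up to 3, which equal 0.0501 to 0.395 CPM. Positions are GENCODE M21 on GRCm38, the mm10 build.

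The members and lists were chosen with earlier results of these data known. Named genes were the members, Ccn1, Ccn2, up to 3 genes per direction of each wider list with the smallest p in Het against WT, the 5 genes most like Ankrd1, and cell type markers. Alternatives were DESeq2 1.42.0, other scalings, no filter, only the groups compared, the enzyme share as a covariate, and leaving out each library. For the wider lists, the fits without WT-2404 and with the covariate were chosen after seeing the data.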

Additional observations from a re-analysis of the deposited data

Results flagged for a closer look

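Within the KO group, Ankrd1 was at 0.692 CPM in KO-2124 and at 0.371 to 0.404 CPM in the other 3 libraries, a gap of 0.896 of the group's range, above Dixon's 95% critical value for 4 samples. It was the single library far from its group among 10 genes examined in the KO group, where chance gives about 0.5. Groups of 3 libraries were not examined. KO-2124 also had the lowest enzyme share of the KO libraries, at 32.4%, and the highest share of reads outside genes, at 8.71%. It held 15 of the 28 Ankrd1 counts of the group, and its counting interval of 0.387 to 1.14 CPM overlaps those of the other KO libraries.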

How the results depend on the processing

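No paired analysis was possible because the groups share no mouse numbers. Ankrd1 kept its direction in all 17 alternatives of both comparisons with WT, between -4.25 and -2.68 for Het and between -3.38 and -2.06 for KO, and passed the threshold in 3 of them: DESeq2, library size alone and without WT-2067. Under library size alone 3140 genes passed in Het against WT and 2841 in KO against WT, all lower, and the members' medians were -2.03 and -1.58. DESeq2 called 391 and 1011 genes. With the enzyme share as a covariate the members' medians were -0.09 (-0.0888) and -0.0076, and the cause was not tested. Leaving out single libraries gave 0 to 1160 genes in Het against WT and 0 to 1932 in KO against WT, the higher counts without WT-2067. Yap1, Tead1 and Amotl2 changed sign under 1, 2 and 7 alternatives in Het against WT. In KO against Het the members' median was -0.03 without KO-2124. Depth limits Ankrd1 most, with 3 counts in 3 libraries.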

Other observations

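The account above does not cover islet and adipocyte genes. Islet genes (the hormone genes Ins1, Ins2, Gcg and Sst, and Chga) summed to 432 to 5271 CPM in WT, 4582 to 9209 in Het and 3343 to 7884 in KO libraries. All 5 were higher in Het and in KO than in WT. Adipocyte genes (Adipoq, Plin1, Cidec and Lep) summed to 0.820 to 8.89 CPM in WT, 6.62 to 14.7 in Het and 3.04 to 11.9 in KO, with all 4 higher in each. Neither list passed the threshold for any gene in edgeR (0 genes), and the lowest islet sum, 432 CPM, was that of WT-2404.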
